A study of Sus scrofa with 15 samples.

Results

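Fibromodulin (FMOD), chondroadherin (CHAD), osteomodulin (OMD) and chondroadherin like (CHADL) are 4 small leucine-rich matrix proteins, and their transcripts were followed through sorted cells of the adult pig knee. They were picked by gene symbol, as 4 of the 25322 genes listed. Their identifiers are ENSSSCG00000015270 for FMOD, ENSSSCG00000017569 for CHAD, ENSSSCG00000008073 for OMD and ENSSSCG00000000067 for CHADL.

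Proteins of this family carry a chain of leucine-rich repeats that folds into a curved surface, and they sit on collagen fibrils or between fibrils and cells. In cartilage they are known for setting how thick fibrils grow, how fibrils are cross-linked and how chondrocytes hold on to the matrix. Fibromodulin and osteomodulin can carry keratan sulfate chains, whereas chondroadherin, which binds an integrin on the cell surface, is known for lacking such chains.

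The study asked whether the surface proteins ITGA4, an integrin subunit that recognises fibronectin, and BMPR1B, a receptor for bone morphogenetic proteins, separate distinct cells within articular cartilage. Freshly digested knee cartilage of adult pigs 2, 5 and 6 was sorted into chondrocytes with both proteins (ITGA4+BMPR1B+), with ITGA4 alone (ITGA4+BMPR1B-), with BMPR1B alone (ITGA4-BMPR1B+) and with neither (ITGA4-BMPR1B-), and each population of each pig gave 1 library. CD146+ cells of the synovium of pigs 3, 4 and 5, sorted as CD45-CD31-CD146+ and labelled as mesenchymal stem cells, gave another 3 libraries. No treatment of the animals is described, and the cells were not cultured before sequencing. For the populations labelled by ITGA4 or BMPR1B alone, the labels name only the positive marker. Absence of the other was taken from the methods of the study. Only pig 5 gave both cartilage and synovial libraries, so that animal and cell type were largely separate in that comparison.

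The deposited value is a signal that summed to 629194 to 629195 in every library, and the read depth behind it is unknown. Structural RNA took 43.9 to 96.2% of that signal and messenger RNA of nuclear genes took 2.03 to 22.1%, lowest in the CD146+ libraries (2.95 to 3.79%) and the chondrocytes of pig 2 (2.03 to 4.17%). The values below are therefore on a messenger RNA scale, on which structural and mitochondrial rows were left out and the libraries were aligned on the remaining genes. The transcripts of the sorted proteins could not check the chondrocyte labels: ITGA4 lay at or below 1.40 and BMPR1B at or below 0.153 in every chondrocyte library. MCAM, which encodes CD146, lay at 265 to 730 in CD146+ cells, against 0.615 to 9.93 in chondrocytes. The summed level of 7 measured chondrocyte markers was 15484 to 85260 in chondrocytes, against 45.9 to 51.1 in CD146+ cells. The summed level of 9 measured endothelial marker rows was 7.24 to 124 in chondrocytes, against 2982 to 5062 in CD146+ cells, and PECAM1, which encodes the CD31 that the sort selected against, was at 344 to 621 in the CD146+ libraries. The study describes the CD146+ cells as synovial pericytes. The summed level of 10 pericyte and smooth muscle marker rows, MCAM among them, was 423 to 1557 in chondrocytes, against 424 to 847 in CD146+ cells. MCAM alone, the gene of that sort, made up 265 to 730 of the CD146+ sums.

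FMOD, CHAD and OMD were much higher in every chondrocyte library than in any CD146+ library, and CHADL was not. FMOD, which in mice steers the cross-linking enzyme lysyl oxidase on fibrils, was at 3120.3, 5396 and 7942 in ITGA4+BMPR1B+ chondrocytes of pigs 2, 5 and 6, 3132, 4513 and 7208 in ITGA4+BMPR1B- cells, 3737, 7611 and 8712 in ITGA4-BMPR1B+ cells, and 3275, 4423 and 6097 in those of the ITGA4-BMPR1B- sort, against 8.57, 10.05 and 63.1 in CD146+ cells of pigs 3, 4 and 5. The 4 chondrocyte populations overlapped one another widely, and none overlapped the CD146+ cells.

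CHAD, through which chondrocytes can bind the matrix, was at 2501, 3769 and 2156 in ITGA4+BMPR1B+ chondrocytes of pigs 2, 5 and 6, 1251, 1285 and 1277 in ITGA4+BMPR1B- cells, 1340.3, 4441 and 2299 in ITGA4-BMPR1B+ cells, and 890, 2141 and 1164 in those of the ITGA4-BMPR1B- sort, against 3.22, 3.71 and 5.94 in CD146+ cells. The ITGA4+BMPR1B+ values all lay above the ITGA4+BMPR1B- values, whereas both ITGA4- populations ranged widely and overlapped.

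OMD, also called osteoadherin and first known from mineralised bone matrix, was at 70.6, 280 and 212 in ITGA4+BMPR1B+ chondrocytes of pigs 2, 5 and 6, 58.2, 87.5 and 90.7 in ITGA4+BMPR1B- cells, 107, 255 and 275 in ITGA4-BMPR1B+ cells, and 57.7, 110.3 and 89.2 in those of the ITGA4-BMPR1B- sort, against 0.471, 0.219 and 4.87 in CD146+ cells. The highest 4 values were the BMPR1B+ libraries of pigs 5 and 6, and no chondrocyte value fell into the CD146+ range.

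CHADL, a relative of chondroadherin that binds collagen and slows fibril formation in vitro, was at 30.1, 3.60 and 7.99 in ITGA4+BMPR1B+ chondrocytes of pigs 2, 5 and 6. It was at 19.9 in ITGA4+BMPR1B- chondrocytes of pig 2 and at the lowest value of the table in those of pigs 5 and 6, and at 6.29 and 7.78 in ITGA4-BMPR1B+ chondrocytes of pigs 2 and 6 and at the lowest value in pig 5. It was at 21.7, 13.8 and 10.3 in ITGA4-BMPR1B- chondrocytes, against 75.1, 83.3 and 6.74 in CD146+ cells of pigs 3, 4 and 5. CHADL was thus the only member of the 4 whose chondrocyte and CD146+ values overlapped, through the CD146+ library of pig 5. The share of all genes without such overlap was not counted, so the separation of the other members is a description only.

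**Figure D1:**
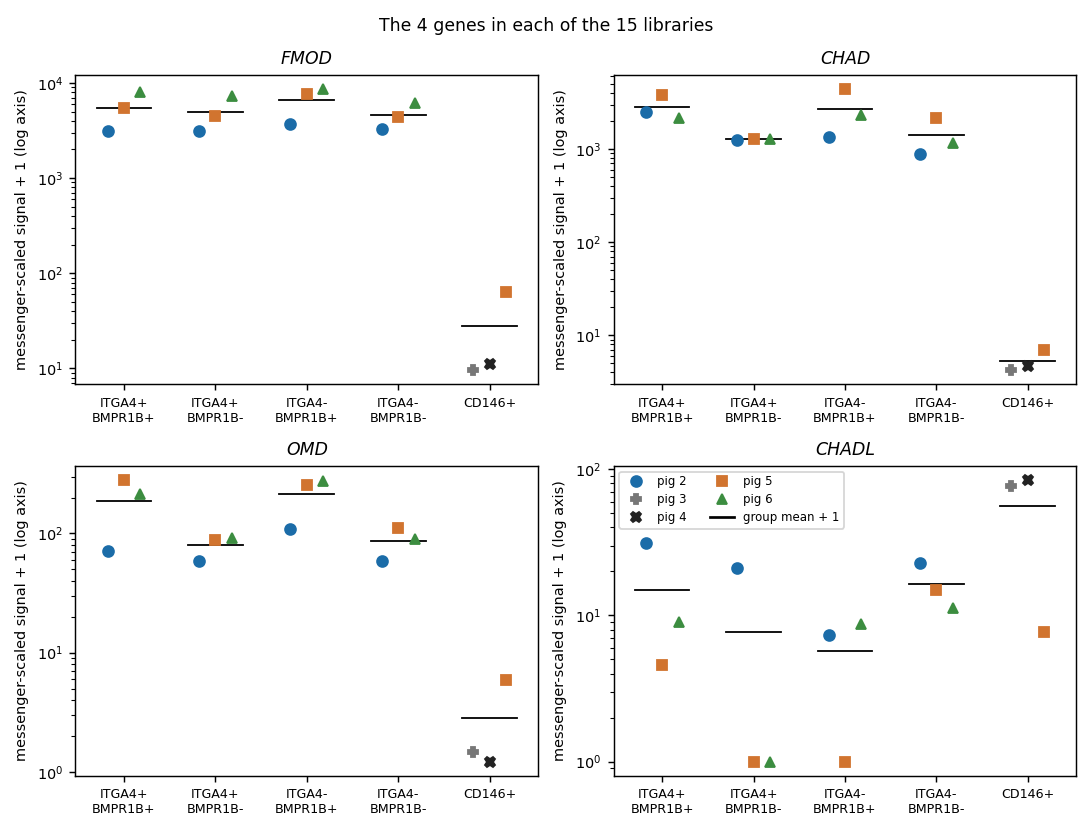
Signal of FMOD, CHAD, OMD and CHADL on the messenger RNA scale, plotted as signal + 1 on a log axis, in the 4 chondrocyte populations and CD146+ cells; each point is the library of 1 pig and each line a group mean of 3 libraries. FMOD, CHAD and OMD lie far above the CD146+ values in all 12 chondrocyte libraries, with FMOD between 3120.3 and 8712, while CHADL reaches its highest values, 75.1 and 83.3, in CD146+ cells.

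Across the 12 chondrocyte libraries FMOD varied least, averaging 5430.4 ± 2032 (SD, n = 12) with a coefficient of variation of 37.4%. CHAD averaged 2043 ± 1104 (SD, n = 12; coefficient of variation 54.1%), OMD averaged 141 ± 87.5 (62.0%) and CHADL averaged 10.1 ± 9.61 (94.9%). The pig accounted for much of the order in FMOD, which averaged 3316 in pig 2, 5486 in pig 5 and 7489 in pig 6 (n = 4 libraries each). OMD was also lowest in pig 2, at 73.4, against 183 in pig 5 and 167 in pig 6, and CHAD averaged 1496, 2909 and 1724 in pigs 2, 5 and 6. CHADL ran the other way, averaging 19.5 in pig 2, 4.36 in pig 5 and 6.52 in pig 6. The pig 2 chondrocytes are also the libraries with the least messenger RNA signal, and the part of that share in these differences was not tested.

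By group mean, FMOD was highest in ITGA4-BMPR1B+ chondrocytes (6686 ± 2613), then in ITGA4+BMPR1B+ cells (5486 ± 2412), then in those sorted as ITGA4+BMPR1B- (4951 ± 2073) and last in ITGA4-BMPR1B- cells (4598 ± 1419; SD, n = 3 each). Neighbouring populations in that order lay within these SDs, which include the spread between pigs. Within pigs, ITGA4+BMPR1B+ cells were below ITGA4-BMPR1B+ cells in all 3, at 0.709 to 0.912 times. That difference did not pass with the pig as a term (limma, adjusted p = 0.684). The other neighbouring populations differed in both directions. For CHAD, ITGA4+BMPR1B+ (2808 ± 850.0) and ITGA4-BMPR1B+ (2694 ± 1588) stood above ITGA4-BMPR1B- (1398 ± 658) and ITGA4+BMPR1B- (1271 ± 17.7; SD, n = 3 each). OMD was highest in ITGA4-BMPR1B+ chondrocytes (212 ± 91.6), ahead of ITGA4+BMPR1B+ cells (188 ± 107), while the ITGA4-BMPR1B- sort (85.7 ± 26.5) came before ITGA4+BMPR1B- cells (78.8 ± 17.9). In both genes a BMPR1B+ population thus headed the order, and the 2 BMPR1B+ means lay within the spread of each other. The 2 BMPR1B- means did so for OMD, whereas for CHAD the ITGA4+BMPR1B- values were so close together that the ITGA4-BMPR1B- mean lay above all 3 of them.

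When the mean of the 4 chondrocyte populations was set against CD146+ cells, 3 of the 4 members were higher in chondrocytes, where 22.4% of the 9957 genes tested were higher and 44.2% changed in either direction (limma, adjusted p under 0.05). FMOD was higher by 8.07 on the log2(signal + 1) scale (SE 0.51; adjusted p = 1.30e-07, limma). CHAD was higher by 8.46 (SE 0.33; adjusted p = 2.21e-09) and OMD by 5.78 (SE 0.49; adjusted p = 1.42e-06). This fit counted the 4 chondrocyte libraries of a pig as independent, which can make its SEs and p-values too small. CHADL differed by -2.48 (SE 1.02; adjusted p = 0.0659) and did not pass the test. It passed without the chondrocytes of pig 2 (-3.21, adjusted p = 0.0151), without the ITGA4+BMPR1B- library of pig 2 (-2.85, adjusted p = 0.0153) and without the CD146+ library of pig 5 (-3.61, adjusted p = 0.0232). In sorted bulk cells, fewer cells making a transcript and less of it per cell cannot be told apart.

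With the pig as a term, the comparison rests on pig 5, the one animal in both sets, and the log2 differences were 6.38 for FMOD, 8.55 for CHAD and 4.80 for OMD, all past the threshold (34.2% of all genes passed), and -1.43 for CHADL (adjusted p = 0.378). The CD146+ library of pig 5 had the highest FMOD, CHAD and OMD of its group, and without it the differences were 8.95 for FMOD and 6.49 for OMD. That library also had the highest summed level of 7 synovial fibroblast markers among CD146+ cells, 252 against 48.9 and 72.7 in the others. The same list summed to 460 to 2612 in chondrocytes, so it does not single out fibroblasts here. The chondrocyte markers summed to 51.0 in that library, against 51.1 in pig 3 and 45.9 in pig 4. The part of other cells in the FMOD and OMD of that library was not tested.

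Each population taken alone gave the same picture for FMOD, CHAD and OMD. ITGA4+BMPR1B+ chondrocytes were higher than CD146+ cells by 8.08, 9.05 and 6.21 for FMOD, CHAD and OMD (log2), where 35.9% of all genes changed and 18% were higher. ITGA4+BMPR1B- chondrocytes were higher by 7.95, 7.94 and 5.16, where 31.7% changed and 16.2% were higher. ITGA4-BMPR1B+ chondrocytes were higher by 8.37, 8.86 and 6.49 (36.5% changed, 18.6% higher) and ITGA4-BMPR1B- chondrocytes by 7.88, 7.98 and 5.26 (33.1% changed, 17.5% higher). These 4 comparisons share the CD146+ libraries. On the deposited scale, which keeps structural RNA in the total, the OMD difference did not pass in ITGA4+BMPR1B- (2.71, adjusted p = 0.0917) or ITGA4-BMPR1B- cells (2.27, adjusted p = 0.297).

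CHADL passed the test in 1 of the 4 populations, at -3.74 in ITGA4+BMPR1B- chondrocytes (adjusted p = 0.0431), while ITGA4+BMPR1B+ cells gave -1.76, ITGA4-BMPR1B+ cells -3.20 and ITGA4-BMPR1B- cells -1.23 (adjusted p = 0.317, 0.0714 and 0.503). The ITGA4+BMPR1B- call was lost with the pig as a term (-2.68, adjusted p = 0.153, where 28.9% of all genes passed), without the chondrocytes of pig 5 or pig 6 (adjusted p = 0.163 and 0.219), without only the ITGA4+BMPR1B- library of either (0.148 and 0.149), and without the CD146+ library of pig 3 or pig 4 (adjusted p = 0.129 and 0.140). The 5 highest CHADL values came from libraries with little messenger RNA signal (2.03 to 4.17%), the CD146+ cells of pigs 3 and 4 and 3 of the 4 chondrocyte libraries of pig 2. The other 2 libraries with a share that low had 6.29 (ITGA4-BMPR1B+ cells of pig 2) and 6.74 (CD146+ cells of pig 5), within the range of the remaining chondrocytes, and the part of that share was not tested. It also overlaps L3MBTL2 in the RefSeq annotation (Sscrofa11.1), listed at 2107 to 3182 in chondrocytes and 1503 to 2139 in CD146+ cells, and the sources used here do not say whether the counting used strand, so the CHADL values are uncertain. CHAD overlaps ACSF2, which lay at 3.46 to 8.83 in chondrocytes and 3.80 to 5.50 in CD146+ cells, and OMD overlaps CENPP, which lay at or below 0.105 in every library.

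In the same annotation FMOD lies next to PRELP, with OPTC beyond. OMD lies between OGN and ASPN, with ECM2 beyond, and all of these are genes of the same family. Of 14 other small leucine-rich genes, 12 rows for 11 genes were tested, and 6 rows were higher and 1 lower in chondrocytes than in CD146+ cells (22.4% and 21.8% of all genes). Their median log2 difference was 1.43, against -0.02 over all genes. PRELP, thought to anchor basement membranes to the matrix around them, was higher by 8.01 (adjusted p = 2.21e-09, limma), and biglycan (BGN) by 5.89 (adjusted p = 7.21e-08). ECM2, listed in 2 rows, was higher by 3.46 and 2.61, and ASPN, which binds collagen and TGF-beta, by 2.41 (adjusted p = 2.11e-06). OGN was higher by 2.41 and NYX was the 1 that was lower, at -2.52, and both calls were lost with the pig as a term (adjusted p = 0.0595 and 0.165). Decorin (DCN) differed by -0.63 (adjusted p = 0.0560; 0.0264 with the pig as a term), and by -1.02 (adjusted p = 0.00563) with messenger RNA scaled to its own total. OGN, NYX and DCN were named here after their values had been seen.

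**Figure D2:**
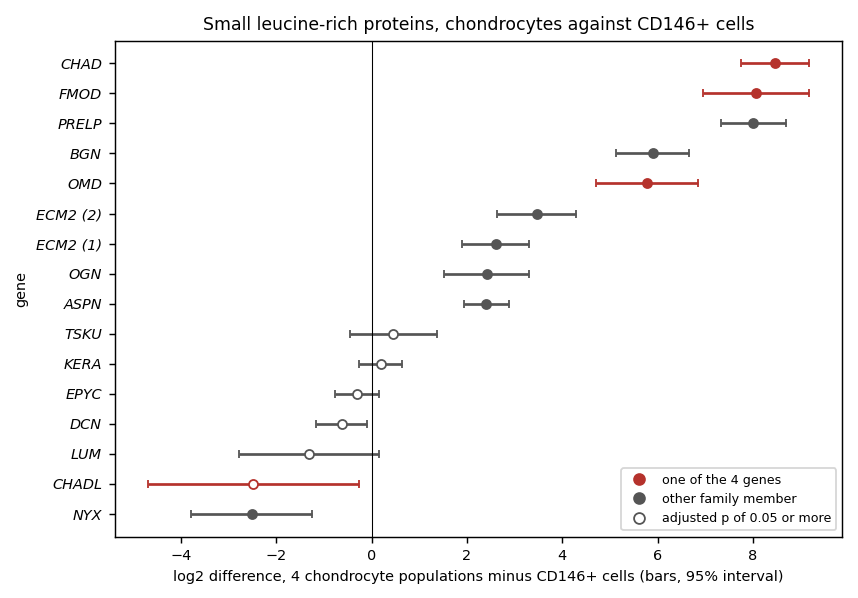
Difference between the mean of 4 chondrocyte populations and CD146+ cells for the small leucine-rich genes tested, on the log2(signal + 1) scale with 95% intervals; red marks the 4 genes described here, filled points have an adjusted p under 0.05 (limma, 15 libraries), and ECM2 has 2 rows. CHAD (8.46), FMOD (8.07) and PRELP (8.01) lie furthest to the right, and CHADL (-2.48) lies on the other side of 0 with an open point.

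Genes whose products these proteins bind or work with were mostly higher in chondrocytes too. Of 10 collagen rows 8 were higher and 0 lower in chondrocytes than in CD146+ cells, led in size by COL2A1 at 10.29, COL9A2 at 8.21, COL11A1 at 7.27 and COL9A1 at 6.18 (limma, log2 difference; at an unadjusted p under 0.05 the counts were also 8 and 0). Of 7 genes of collagen cross-linking 6 were higher, among them LOXL4 at 7.10, LOX, the lysyl oxidase that fibromodulin binds, at 6.61, LOXL3 at 4.54 and the lysyl hydroxylase PLOD2 at 4.46. PLOD1 was lower, at -1.20.

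The genes that build keratan sulfate did not move in 1 direction. Of the 4 tested, B3GNT2, which extends the chain, was higher by 1.04 in chondrocytes (0.61, adjusted p = 0.0752 with messenger RNA scaled to its own total), while the sulfotransferases CHST1 and CHST2 were lower, at -6.12 and -5.50 (adjusted p = 0.00167 and 4.5e-05). B4GALT1 differed by 0.55 (adjusted p = 0.121; 0.94 and 0.00894 with the pig as a term). Among the receptors, the syndecan SDC4 was higher by 3.32 and ITGAV by 1.52, whereas ITGB3, the partner of ITGAV in the integrin that binds osteomodulin of cattle, was lower at -4.19. ITGB1 was lower at -0.51 (adjusted p = 0.0314), a call lost with the pig as a term (adjusted p = 0.172) and on the deposited scale, where the difference was 0.50 (adjusted p = 0.582).

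Fibromodulin also binds TGF-beta, and TGFB2 was higher in chondrocytes by 4.28, TGFB3 by 2.18 and TGFB1 differed by -0.90 (adjusted p = 0.110, not past the threshold; -1.33 and 0.0115 with messenger RNA scaled to its own total, 0.12 and 0.868 as deposited). The TGFB3 call was lost with the pig as a term (adjusted p = 0.0652). Of 5 proteases that can cut members of the family, MMP13 was higher by 3.98 and HTRA1 by 1.96, whereas ADAMTS4 was lower at -6.01 and ADAMTS5 at -1.75.

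Within the cartilage, CHAD and OMD were higher in BMPR1B+ than in BMPR1B- chondrocytes of the same pig in all 6 pairs, that is, in 3 pigs on either side of the ITGA4 sort. How many of all genes had all 6 pairs in the same direction was not counted, so the pair counts here and below are descriptions only. CHAD averaged 2751 ± 1140.5 in BMPR1B+ and 1335 ± 422 in BMPR1B- chondrocytes (SD, n = 6 libraries each). In the 6 pairs the BMPR1B+ library had 1.51 to 2.93 times the CHAD signal of its partner, with a median of 1.99. OMD averaged 200.04 ± 90.1 in BMPR1B+ and 82.3 ± 20.6 in BMPR1B- chondrocytes, and the pairs ranged from 1.21 to 3.20 times with a median of 2.33. The BMPR1B+ and BMPR1B- values of each gene overlapped across pigs.

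FMOD averaged 6086 ± 2343 in BMPR1B+ and 4775 ± 1600.4 in BMPR1B- chondrocytes, and was higher in 5 of 6 pairs (0.996 to 1.72 times, median 1.17). CHADL averaged 9.29 ± 10.6 in BMPR1B+ and 10.97 ± 9.44 in BMPR1B- chondrocytes and was higher in 3 of 6 pairs. The plot of paired values shows all 6 lines of CHAD and OMD falling toward the BMPR1B- side.

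**Figure D3:**
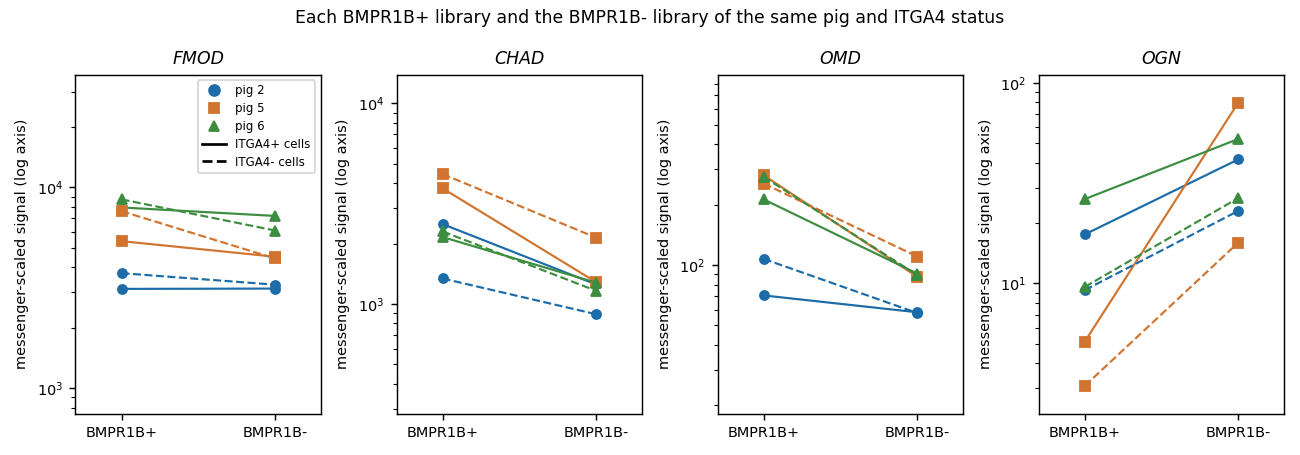
Signal of FMOD, CHAD, OMD and OGN on the messenger RNA scale (log axis) in BMPR1B+ (left) and BMPR1B- (right) chondrocytes; each line joins the 2 libraries of 1 pig and ITGA4 class, with ITGA4+ cells solid and ITGA4- cells dashed. CHAD and OMD are higher on the BMPR1B+ side in 6 of 6 pairs and FMOD in 5 of 6, while OGN is higher on the BMPR1B- side in 6 of 6.

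The test of that difference depended on whether the pig was a term. Without it, 0 of the 4 members passed (limma, 12 libraries), where 0.211% of all genes did, and 2 of the 4 had an unadjusted p under 0.05. CHAD was higher by 0.99 (95% interval 0.30 to 1.68; adjusted p = 0.291) and OMD by 1.14 (0.32 to 1.96; adjusted p = 0.300). FMOD differed by 0.31 (-0.41 to 1.04; adjusted p = 0.801) and CHADL by 0.01 (-1.94 to 1.96; adjusted p = 0.999).

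With the pig as a term, 2 of the 4 members passed, both higher in BMPR1B+ cells, where 2.68% of all genes changed and 1.22% were higher. The CHAD interval narrowed to 0.52 to 1.46 (adjusted p = 0.0478) and that of OMD to 0.74 to 1.54 (adjusted p = 0.0232), while FMOD had 0.08 to 0.54 (adjusted p = 0.148) and CHADL an adjusted p of 0.997. These calls lie close to the threshold, and both were lost when the same fit was made on the deposited scale (CHAD 1.08, adjusted p = 0.0908; OMD 1.07, adjusted p = 0.0713), where 0 genes passed and 1202 had an unadjusted p under 0.05. When single libraries or pigs were left out of that fit, CHAD passed only without the pig 2 library of ITGA4+BMPR1B- or of ITGA4-BMPR1B+ cells, with adjusted p from 0.0295 to 0.343 over 15 such fits. OMD passed in 6 of the 15, without pig 2, without any 1 of the ITGA4+BMPR1B+ libraries, or without either of those 2 pig 2 libraries, with adjusted p from 0.0182 to 0.301. The size of the difference moved less, from 0.82 to 1.14 for CHAD and from 0.998 to 1.43 for OMD.

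The ratio of 2 members in the same library does not depend on how libraries are scaled. CHAD signal as a percentage of FMOD signal had medians of 69.8% in ITGA4+BMPR1B+ (27.1 to 80.2%), 28.5% in ITGA4+BMPR1B- (17.7 to 39.95%), 35.9% in ITGA4-BMPR1B+ (26.4 to 58.4%) and 27.2% in ITGA4-BMPR1B- chondrocytes (19.1 to 48.4%). OMD signal as a percentage of FMOD signal had medians of 2.67% in ITGA4+BMPR1B+ (2.26 to 5.19%), 1.86% in ITGA4+BMPR1B- (1.26 to 1.94%), 3.16% in ITGA4-BMPR1B+ (2.87 to 3.35%) and 1.76% in ITGA4-BMPR1B- cells (1.46 to 2.49%). Both ratios were higher in BMPR1B+ than in BMPR1B- cells in 6 of 6 pairs, by a median of 0.54 (0.27 to 1.29) for CHAD over FMOD and 0.90 (0.28 to 1.42) for OMD over FMOD on the log2 scale. The ratio of OMD to CHAD was higher in 5 of 6 pairs, with a median of 0.23. These ratios are compared between libraries only, since the sources used here do not say how the signal treats gene length.

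**Figure D4:**
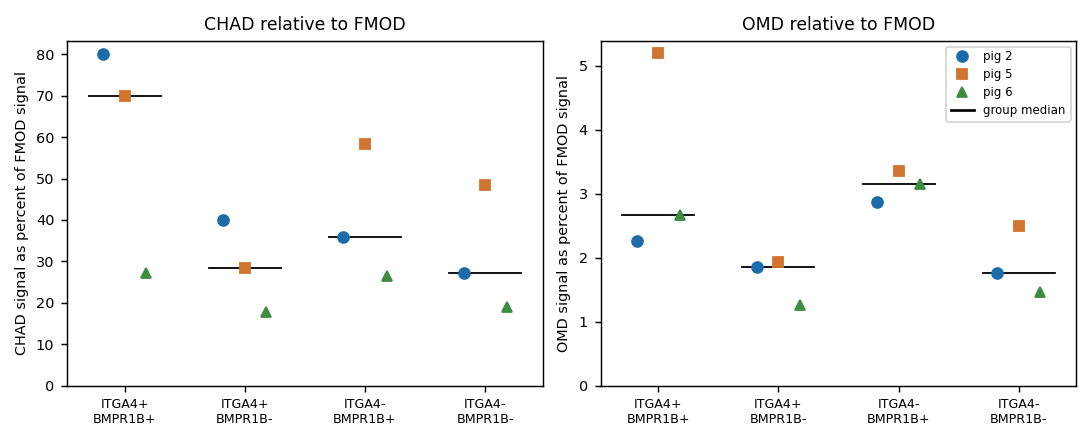
CHAD signal (left) and OMD signal (right) as a percentage of FMOD signal in the same library, by chondrocyte population; points are libraries, marked by pig, and lines are medians of 3. The BMPR1B+ medians, 69.8% and 35.9% for CHAD and 2.67% and 3.16% for OMD, lie above the BMPR1B- medians of the same ITGA4 class, with overlap between pigs for CHAD.

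Matrix genes that passed beside CHAD and OMD in the BMPR1B comparison included collagens and their cross-linking enzymes. Without the pig term COL11A1 was higher in BMPR1B+ cells by 1.14 and LOX by 1.14, and cathepsin K (CTSK), a collagen-cutting protease, was lower at -1.06 (adjusted p = 0.0481 for each, limma; 0.0518 for each with messenger RNA scaled to its own total). With the pig term 3 of 10 collagen rows were higher, COL11A1, COL2A1 (1.28, adjusted p = 0.0417) and COL9A1 (1.14, adjusted p = 0.0470), and none was lower in either fit, although COL14A1 and, with the pig term, COL1A2 had negative differences with an unadjusted p under 0.05. Of 7 cross-linking genes 3 were higher with the pig term, LOX (adjusted p = 0.0191), PLOD2 (0.74, adjusted p = 0.0222) and LOXL4 (1.34, adjusted p = 0.0474), and LOXL3 was at 0.72 (adjusted p = 0.0533). TGFB2 was higher by 0.80 with the pig term (adjusted p = 0.0292) and not without it (adjusted p = 0.376). None of the 4 keratan sulfate genes and none of the 4 receptor genes tested passed in either fit, and of these B4GALT1 alone had an unadjusted p under 0.05, in both fits.

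Some genes of the joint surface were lower in BMPR1B+ cells. PRG4, which encodes the lubricant of the superficial zone, was at -3.50 in BMPR1B+ against BMPR1B- chondrocytes (adjusted p = 0.168; 0.0256 with the pig term), and with that term 5 of 8 superficial zone rows were lower, for PRG4, VCAM1, CLU and, in 2 rows, ABI3BP. Of the other 3 rows none passed, and GDF5 was at 1.12 (unadjusted p = 0.00241, adjusted p = 0.0656, limma), CILP at 0.35 and ERG at 0.02. Their summed level was 1350 to 5141 in ITGA4+BMPR1B+, 7319 to 13364 in ITGA4+BMPR1B-, 1635 to 3309 in ITGA4-BMPR1B+ and 4642 to 8186 in ITGA4-BMPR1B- chondrocytes. The summed level of 7 chondrocyte markers was 25511 to 52734 in ITGA4+BMPR1B+ and 34890 to 85260 in ITGA4-BMPR1B+, against 15484 to 23398 in ITGA4+BMPR1B- and 26764 to 35374 in ITGA4-BMPR1B- chondrocytes. With the pig term 3 of these 7 were higher in BMPR1B+ cells, COL2A1, MATN3 (1.36) and HAPLN1 (0.64), and 0 were lower (limma; none had a negative difference). Of the lists for other cell types, endothelial (8 rows tested), pericyte (6) and macrophage (2) markers gave no call in either fit. With the pig term 5 of these had negative differences with an unadjusted p under 0.05, PECAM1 (-1.11), TIE1 (-0.83), SOX17 (-1.33), PDGFRB (-0.80) and CD68 (-1.66), and CSPG4 had a positive one (0.45). The summed endothelial level was 11.7 to 57.0 in ITGA4+BMPR1B+ and 7.24 to 19.4 in ITGA4-BMPR1B+ cells, against 17.8 to 124 in ITGA4+BMPR1B- and 16.3 to 46.1 in ITGA4-BMPR1B- cells. With the pig term PDGFRA alone of 7 synovial fibroblast markers was lower, at -1.06, and both rows of SPARC, which chondrocytes also make, were higher among 6 osteoblast rows, at 1.22 and 1.19. The part of these zone and cell type markers in the CHAD and OMD differences was not tested.

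**Figure D5:**
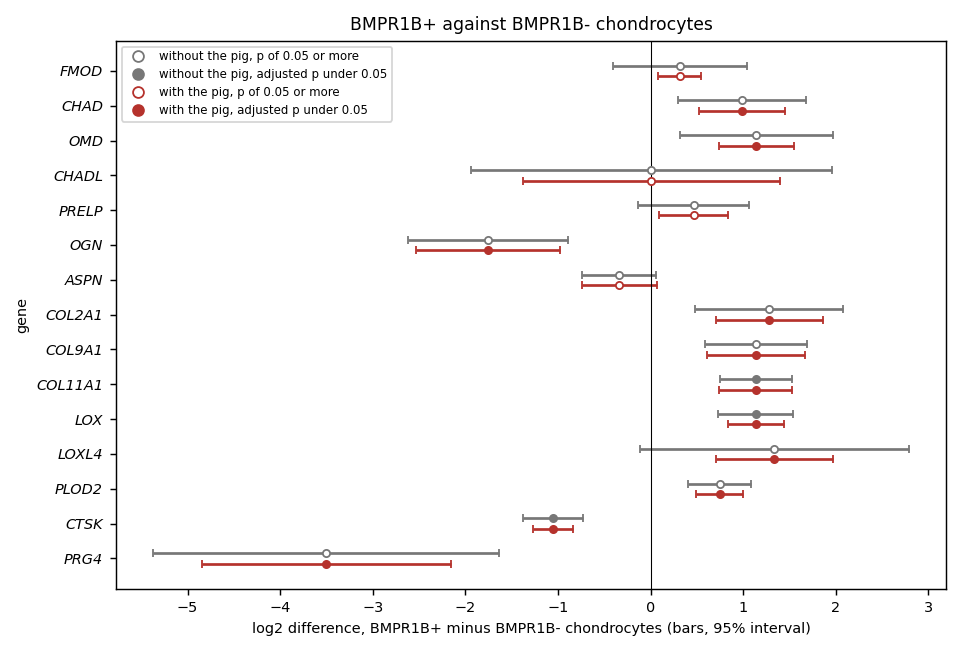
Difference between BMPR1B+ and BMPR1B- chondrocytes on the log2(signal + 1) scale with 95% intervals, for the 4 genes, 3 family members that adjoin them, and some matrix genes named in the text, without (grey) and with (red) the pig as a term; filled points have an adjusted p under 0.05 (limma, 12 libraries). The matrix genes drawn all passed in at least 1 of these fits, and COL14A1, COL1A2 and GDF5 are not drawn. CHAD (0.99) and OMD (1.14) are filled only with the pig term, and OGN (-1.76), CTSK (-1.06) and PRG4 (-3.50) lie on the negative side.

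The genes that adjoin FMOD and OMD did not all follow them. OGN, osteoglycin, next to OMD, was at 17.6, 5.14 and 26.3 in ITGA4+BMPR1B+ chondrocytes of pigs 2, 5 and 6, 41.5, 79.7 and 52.5 in ITGA4+BMPR1B- cells, 9.27, 3.09 and 9.61 in ITGA4-BMPR1B+ cells, and 23.0, 16.0 and 26.7 in those of the ITGA4-BMPR1B- sort, against 3.81, 1.66 and 2.78 in CD146+ cells. Each BMPR1B+ library lay below its BMPR1B- partner, in 6 of 6 pairs, at 0.0644 to 0.502 times, with a log2 difference of -1.76 (adjusted p = 0.137; 0.0391 with the pig term). ASPN, on the other side of OMD, was higher in BMPR1B+ cells in 1 of 6 pairs, at -0.34 (adjusted p = 0.580), and PRELP, next to FMOD, in 6 of 6 pairs (1.07 to 1.76 times), at 0.46 (adjusted p = 0.622; 0.179 with the pig term). OGN was the only 1 of the 12 other family rows to pass in this comparison, and only with the pig term.

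Between ITGA4+ and ITGA4- chondrocytes none of the 4 members passed the test on the messenger RNA scale. FMOD averaged 5218 in ITGA4+ and 5642 in ITGA4- chondrocytes, CHAD 2039.8 and 2046, OMD 133 and 149, and CHADL 10.3 and 9.99 (n = 6 libraries each). The log2 differences were -0.11 for FMOD (95% interval -0.84 to 0.61), 0.08 for CHAD (-0.61 to 0.77), -0.19 for OMD (-1.01 to 0.63) and -0.53 for CHADL (-2.48 to 1.42), with adjusted p from 0.953 to 0.987 (limma). On the messenger RNA scale, with or without the pig term, 0 of 4 members passed, where 0.01% of all genes did, and 0 of 4 had an unadjusted p under 0.05 in either fit. On the deposited scale, where the median of all genes lay at 0.32, the differences were 0.52 for FMOD, 0.69 for CHAD and 0.34 for OMD (limma, adjusted p = 0.859 for each). With the pig term FMOD (adjusted p = 0.0162) and CHAD (adjusted p = 0.0356) passed there, in a fit in which 3507 genes passed. FMOD was higher in ITGA4+ cells in 2 of 6 pairs and CHAD, OMD and CHADL in 3 of 6 each.

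None of the 6 comparisons of single populations gave a call for a member without the pig term (limma; 4 of the member values had an unadjusted p under 0.05). Of all genes, 0.0803% passed in ITGA4+BMPR1B- against ITGA4-BMPR1B+ cells, 0.0402% in ITGA4+BMPR1B+ against ITGA4-BMPR1B- cells, and 0.01% or 0% in the other 4. The largest of them for OMD was ITGA4+BMPR1B- against ITGA4-BMPR1B+, at -1.33 (adjusted p = 0.453), which passed with the pig term (adjusted p = 0.0432, where 1.81% of all genes did) but in only 1 of 9 fits that left out a library or pig, that without the ITGA4+BMPR1B- library of pig 2 (adjusted p from 0.0343 to 0.385). CHAD was at 1.10 in ITGA4+BMPR1B+ against ITGA4+BMPR1B- cells and at 0.87 in ITGA4-BMPR1B+ against ITGA4-BMPR1B- cells. OMD was at 1.05 and 1.23 in the same 2 comparisons. The difference between these BMPR1B effects, tested as an interaction, was 0.23 for CHAD, -0.18 for OMD and -0.37 for FMOD, none past the threshold, which 0.01% of all genes passed.

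After the mean of each pig was removed, FMOD, CHAD and OMD were related over the 12 chondrocyte libraries, with Pearson's r of 0.80 for OMD with FMOD, 0.80 for OMD with CHAD and 0.64 for FMOD with CHAD, where the median r over 3869 genes with a mean of at least 20 was 0.04 to 0.10. Many genes were closer. Counting the gene itself, 42 had a higher r with FMOD than OMD did, and 189 a higher r with OMD than FMOD did. For OMD and CHAD the counts were 200 with OMD and 107 with CHAD. For FMOD and CHAD they were 326 with FMOD and 373 with CHAD. Genes among those most like FMOD were the unnamed ENSSSCG00000000051 (r = 0.93), PTGIS (0.91), CILP2 (0.91) and FOS (0.90). Those most like CHAD were the unnamed ENSSSCG00000024470 (r = 0.96), MATN3 (0.94), ID4 (0.93), NREP (0.93) and the unnamed ENSSSCG00000025394 (0.91). Those most like OMD were RGCC (r = 0.98), FN1, which encodes fibronectin (0.97), FAM46A (0.97), CTGF (0.97) and SERINC5 (0.96). These correlations are descriptions over libraries that share their pigs, their sort and their scaling, and CHADL lay below the minimum mean.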

How the data were processed

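The deposited table holds 1 signal value per gene and library; its lowest value is 0.0001, and values are relative to the library total. Per the methods of the study, the authors sorted cells, extracted RNA with a Qiagen Micro kit, prepared libraries with NuGen Ovation SoLo, sequenced paired ends on an Illumina HiSeq, aligned with STAR to the pig Ensembl 84 reference and quantified with the Partek expectation maximisation method. The sources used here give no versions, no normalization of the signal and no strand setting. Without counts, no counting interval could be given.

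Structural (1125) and mitochondrial (37) rows were left out, leaving 24160. Each of the 15 libraries was scaled by the median, over 11063 rows, of its ratio to a geometric mean library, and 1 common factor set the mean total to 1000000. Differences were tested on log2(signal + 1), which understates changes of low genes, with limma 3.58.1 (trended prior, R 4.3.3), two-sided, over 9957 genes above 5 in at least 3 libraries, with Benjamini-Hochberg adjustment and a threshold of 0.05. All 4 members passed that filter. Comparisons with CD146+ cells used 15 libraries and those among chondrocytes 12. The fit without the pig term was tested on simulated data with independent libraries. That test does not cover the likeness between libraries of the same pig. Symbols came from the table for 13674 rows and from RefSeq for 2384.

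The pig number names the same animal across populations. After group means were removed, each of the 12 chondrocyte libraries had its highest correlation within its own pig (r 0.130 to 0.412 within pigs, median -0.213 between pigs). Fits with and without the pig as a replicate block are both given.

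The members and gene lists were chosen with earlier results of these data known. Up to 4 genes with the smallest p were named from each list, and the 5 genes most correlated with each member, of which 1 is not reported here. Alternatives changed the scale, pseudocount, filter, prior, pig term and libraries. Another set the mean of the chondrocyte libraries of each pig against the CD146+ libraries. For pig samples the study called genes by a posterior probability at a set false discovery rate, a test not used here because the table holds no counts. Without the pig term the p-values measure the spread between libraries of the 3 pigs of each population. That fit counts chondrocyte libraries of the same pig as independent, although they were more alike within pigs. With the pig term they measure the spread left within pigs. That fit counts both BMPR1B pairs of a pig as independent, although they come from the same animal.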

Additional observations from a re-analysis of the deposited data

Results flagged for a closer look

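For CHADL, the BMPR1B effect differed between ITGA4+ and ITGA4- chondrocytes by 3.94 on the log2(signal + 1) scale (SE 1.76, 95% interval 0.04 to 7.84; limma, unadjusted p = 0.0479, adjusted p = 0.99997). It is listed here because the pairs moved in opposite directions. In ITGA4+ cells the BMPR1B+ library was higher than its BMPR1B- partner in all 3 pigs, by 0.57, 2.20 and 3.17, and in ITGA4- cells it was lower in all 3, at -1.64, -3.89 and -0.37. With the pig as a term the unadjusted p was 0.0112 and the adjusted p 0.99996. The difference failed the correction over all genes, and 3 of the 12 values behind it were at the lowest value of the table.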

How the results depend on the processing

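The higher FMOD, CHAD and OMD of chondrocytes against CD146+ cells kept their direction and side of the threshold under every alternative tried for the mean of the 4 populations. On the messenger RNA scale 4404 genes passed in that comparison (2231 higher, 2173 lower), 21 between BMPR1B+ and BMPR1B- cells and 1 between ITGA4+ and ITGA4- cells. As deposited, 477 (338 higher, 139 lower), 0 (172 at an unadjusted p under 0.05) and 10 genes passed (limma). The median difference of all genes then lay at 0.59 against CD146+ cells and 0.32 for ITGA4, and the ITGA4 differences of FMOD (0.52) and OMD (0.34) were positive. With messenger RNA scaled to its own total, 5301 genes passed against CD146+ cells (1418 higher, 3883 lower; median of all genes -0.44), CHADL passed against CD146+ cells (-2.86), 2 genes passed for BMPR1B, and the OMD interaction was 0.024. With a pseudocount of 5, CHADL passed against CD146+ cells (-1.81), 2 genes passed for BMPR1B, and CHADL was at -0.13 there. Against CD146+ cells, 2554 genes passed above a minimum signal of 20. For the 4 populations taken alone against CD146+ cells, 173 to 321 genes passed as deposited and 1857 to 2156 above a signal of 20, against 3156 to 3637. In ITGA4-BMPR1B+ cells CHADL passed against CD146+ cells with the messenger RNA total (-3.59) and with a pseudocount of 5 (-2.28). The BMPR1B comparison called 6 genes with no filter and 1 without the trended prior, and the ITGA4 comparison called 3 with no filter and 2 with a pseudocount of 0.1. The cause of these shifts was not tested.

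With the replicate block (the pig), 267 genes passed for BMPR1B, with CHAD at 0.99 and OMD at 1.14 past the threshold, and beside the calls given with the results above the block changed no other call of a member. With the block on the values as deposited, CHADL against CD146+ cells was 0.13 over all chondrocytes, 0.39 in the ITGA4+BMPR1B+ and 0.39 in the ITGA4-BMPR1B- population, 0 genes passed for BMPR1B (1202 at an unadjusted p under 0.05), and 3507 passed for ITGA4, with FMOD at 0.52 and CHAD at 0.69 past the threshold and OMD at 0.34. Chosen after seeing the data, the block with messenger RNA scaled to its own total called 164 genes for BMPR1B, among them CHAD (0.90) and OMD (1.06), and gave an OMD interaction of 0.024. The blocked fits that left out 1 library were also chosen after seeing the data.

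When pigs or libraries were left out, with or without the block, the genes called ranged from 0 to 381 for BMPR1B and from 0 to 6 for ITGA4. The BMPR1B differences ranged from 0.77 to 1.197 for CHAD, 0.95 to 1.44 for OMD and -0.69 to 0.74 for CHADL. The ITGA4 differences ranged from -0.30 to 0.064 for FMOD, -0.23 to 0.36 for CHAD, -0.40 to 0.11 for OMD and -1.29 to 0.071 for CHADL. CHADL against CD146+ cells ranged from -3.61 to -1.88, and the interaction from -0.19 to 0.67 for CHAD and -0.61 to 0.41 for OMD.

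The read depth behind the signal is unknown, so low values such as those of CHADL carry no counting error here. Each chondrocyte population came from 3 pigs and only pig 5 was shared with the CD146+ cells, so cell type, tissue and animal cannot be told apart. The BMPR1B calls for CHAD and OMD lay close to the threshold, and the deposited scale is dominated by structural RNA.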

Other observations

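OGN and ASPN, the genes next to OMD, were ordered by the ITGA4 sort as well. OGN was higher in ITGA4+ than in ITGA4- chondrocytes in 6 of 6 pairs, by 1.66 to 4.98 times, with a log2 difference of 1.14 (limma, adjusted p = 0.817; 0.287 with the pig as a term). ASPN was also higher in 6 of 6 pairs, by 1.09 to 2.61 times, with a log2 difference of 0.68 (adjusted p = 0.688; 0.227 with the pig as a term). PRELP, beside FMOD, was lower in ITGA4+ cells in 6 of 6 pairs, at 0.481 to 0.998 times, with a log2 difference of -0.45 (adjusted p = 0.908; 0.352 with the pig as a term). OMD itself was higher in 3 of 6 pairs. None of these differences passed the test. These 3 genes were chosen for their position beside the members, although OGN was also named above after its values had been seen. ECM2, which lies beyond ASPN, differed by -0.21 and 0.07 in its separate rows.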
